A study of Mus musculus with 18 samples.

Results

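The 6 genes of estrogen handling described here, 6 of the 41325 entries of the count table, were followed in the mouse ovary around ovulation. They were taken by name: Cyp19a1 and Hsd17b1, which make estradiol, Sult1e1, which inactivates it, Esr1 and Esr2, the nuclear receptors that bind it, and Nrip1, a coregulator of those receptors. RNA was measured by sequencing in wild-type mice, in mural granulosa cells, which line the follicle wall, and in the cumulus cells around the oocyte. Both cell types were collected 0, 4 and 12 h after human chorionic gonadotropin (hCG), a hormone that acts on the luteinizing hormone receptor and starts ovulation, which gives 6 groups of 3 libraries. All groups were wild type, and the sources used here give no strain, age or number of animals pooled per library. Groups follow the sample titles. The cell-type characteristic disagreed with them, since 8 of the 9 libraries titled as cumulus were tagged there as mural and 1 had no tag.

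As background, aromatase, the enzyme encoded by Cyp19a1, turns androgens from theca cells into estrogens in the granulosa cells of the growing follicle. HSD17B1 reduces the weak estrogen estrone to the potent estradiol, and the sulfotransferase SULT1E1 attaches a sulfate to estrogens, which then no longer bind their receptors. Estrogen receptor beta (Esr2) is the receptor known for granulosa cells, whereas estrogen receptor alpha (Esr1) is best known in theca and stroma. NRIP1, also called RIP140, binds nuclear receptors including these and usually represses their targets, and mice without it fail to ovulate.

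The 18 libraries held 32.2 to 47.9 M unique gene counts (M, mega). Levels are counts per M counts (CPM) after TMM scaling of the library totals. The limit that a count of 0 allows, 3 counts, was worth 0.0585 to 0.0999 CPM (counting error only). Changes are log2 ± standard error (SE) between groups of 3 libraries. The SE was worked back as the size of the change divided by the square root of the test's F statistic. It is rough where a group has few counts. Each adjusted p is that of edgeR's quasi-likelihood test, adjusted by Benjamini-Hochberg across 19941 genes, and a gene is called, and said to rise, fall or differ, where it is under 0.05. Nothing in the labels says that libraries came from separate animals, so p-values reflect the spread among these samples alone, and that spread may be technical. In such bulk samples, fewer cells of a type and less RNA per cell cannot be told apart.

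Of the cell-type lists, the 10 granulosa markers summed to at least 3595 CPM in each library, and highest in mural cells at 0 h (26794 to 34248 CPM). That list includes Cyp19a1 and Hsd17b1, so its sum is not independent of their changes. The 15 oocyte markers summed to 426 to 2083 CPM in cumulus cells at 0 h, 1206 to 7541 CPM at 4 h and 6.10 to 10.96 CPM at 12 h, when Zp1 and Figla had no counts. In mural cells the oocyte sum ran from 137 to 645 CPM. A pair of cumulus libraries stood apart from their groups: replicate 1 at 0 h had the lowest oocyte sum of its group, 426 CPM, and replicate 3 at 4 h the highest of all libraries, 7541 CPM. The 10 theca markers summed to 635 to 1110, 589 to 748 and 416 to 632 CPM in mural cells at 0, 4 and 12 h, and to 40.8 to 53.5, 31.8 to 57.9 and 124 to 133 CPM in cumulus cells. Most of the cumulus sum was Ptch1 alone, at 35.5, 41.1 and 108 CPM by mean. In cumulus cells Cyp17a1 and Insl3 had no counts at 4 h and Tcf21 none at 12 h. Endothelial markers (7) summed to 18.7 to 203 CPM, erythroid (6) to 5.98 to 734, leukocyte (7) to 3.52 to 16.2, smooth muscle (5) to 4.43 to 136 and surface epithelium (5) to 0.464 to 58.8 CPM over the 18 libraries. The endothelial sums at 12 h were mostly Cdh5 alone (127 CPM by mean in mural and 164 CPM in cumulus cells). The part of these cell types in the results below was not tested unless a value is given.

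On GRCm38, Cyp19a1 lies at chr9:54165937-54268110 (minus strand), Hsd17b1 at chr11:101078411-101080527 (plus), Sult1e1 at chr5:87575969-87591594 (minus), Esr1 at chr10:4611593-5005614 (plus), Esr2 at chr12:76120419-76177259 (minus) and Nrip1 at chr16:76287400-76373827 (minus). The one annotated gene that overlaps a member is the processed pseudogene Gm7862, on the same strand as Esr2, and their exons do not overlap. RefSeq promoter windows, from 250 bases before to 50 after a transcript start, were matched for 5 of the 6 members (9 windows, GRCm38.p6). The windows of Sult1e1, whose RNA changed most, and of Cyp19a1 nearest the start of its longest coding transcript (221 bases away) are shown 5′ to 3′, with capitals for a match to AAGGTCA, the half-site read by the nuclear receptors NR5A1 and NR5A2, here in reverse complement.
Sult1e1, chr5:87591562-87591861, minus strand: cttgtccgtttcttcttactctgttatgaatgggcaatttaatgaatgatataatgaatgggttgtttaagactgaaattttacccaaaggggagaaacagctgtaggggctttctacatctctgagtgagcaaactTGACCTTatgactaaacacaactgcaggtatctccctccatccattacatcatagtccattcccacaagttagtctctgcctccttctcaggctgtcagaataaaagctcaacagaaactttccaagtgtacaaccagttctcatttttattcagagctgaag
Cyp19a1, chr9:54193694-54193993, minus strand: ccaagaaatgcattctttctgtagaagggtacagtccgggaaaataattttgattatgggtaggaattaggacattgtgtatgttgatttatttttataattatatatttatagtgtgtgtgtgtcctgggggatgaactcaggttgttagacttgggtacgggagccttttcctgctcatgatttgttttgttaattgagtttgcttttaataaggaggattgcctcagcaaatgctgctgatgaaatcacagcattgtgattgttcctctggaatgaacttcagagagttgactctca
The Sult1e1 match lies 113 bases before the start and is held, on either strand, by 4.72% of the 32851 windows in the table. Which Cyp19a1 start the mural and cumulus cells use was not tested, and the window shown held none of the motifs searched on both strands. These were AAGGTCA, TGACGTCA (cAMP response element, 1.79% of windows), the palindromic estrogen response element (0.07%, which can overlap the half-site above), TGANTCA (AP-1, 7.81%), TTGCNNAA (C/EBP, 10.8%), TGTGGT (RUNX core, 16.8%) and the palindromic progesterone receptor element (0.475%). Elsewhere, TGTGGT occurred in another window of Cyp19a1 and in that of Esr2, and TTGCNNAA in one of Esr1. A match is a description of letters and says nothing about binding.

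After hCG the genes that make estradiol fell, Sult1e1 rose from almost no counts and fell again, both receptors fell, and Nrip1 fell in mural and rose in cumulus cells. At 4 h in mural cells 1 of the 6 genes rose and 5 fell, where 22.8% of all genes tested rose and 22.3% fell. At 12 h against 0 h the mural counts were again 1 and 5 (21.6% and 19% of all genes), and from 4 to 12 h they were 0 and 4 (18.3% and 16.1%). In cumulus cells 1 rose and 3 fell at 4 h (25% and 22.8%), 2 rose and 4 fell at 12 h (31.2% and 32.9%), and 1 rose and 4 fell from 4 to 12 h (29.2% and 31.3%). Comparisons with 0 h or 4 h share those libraries, so their counts are not independent.

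**Figure D1:**
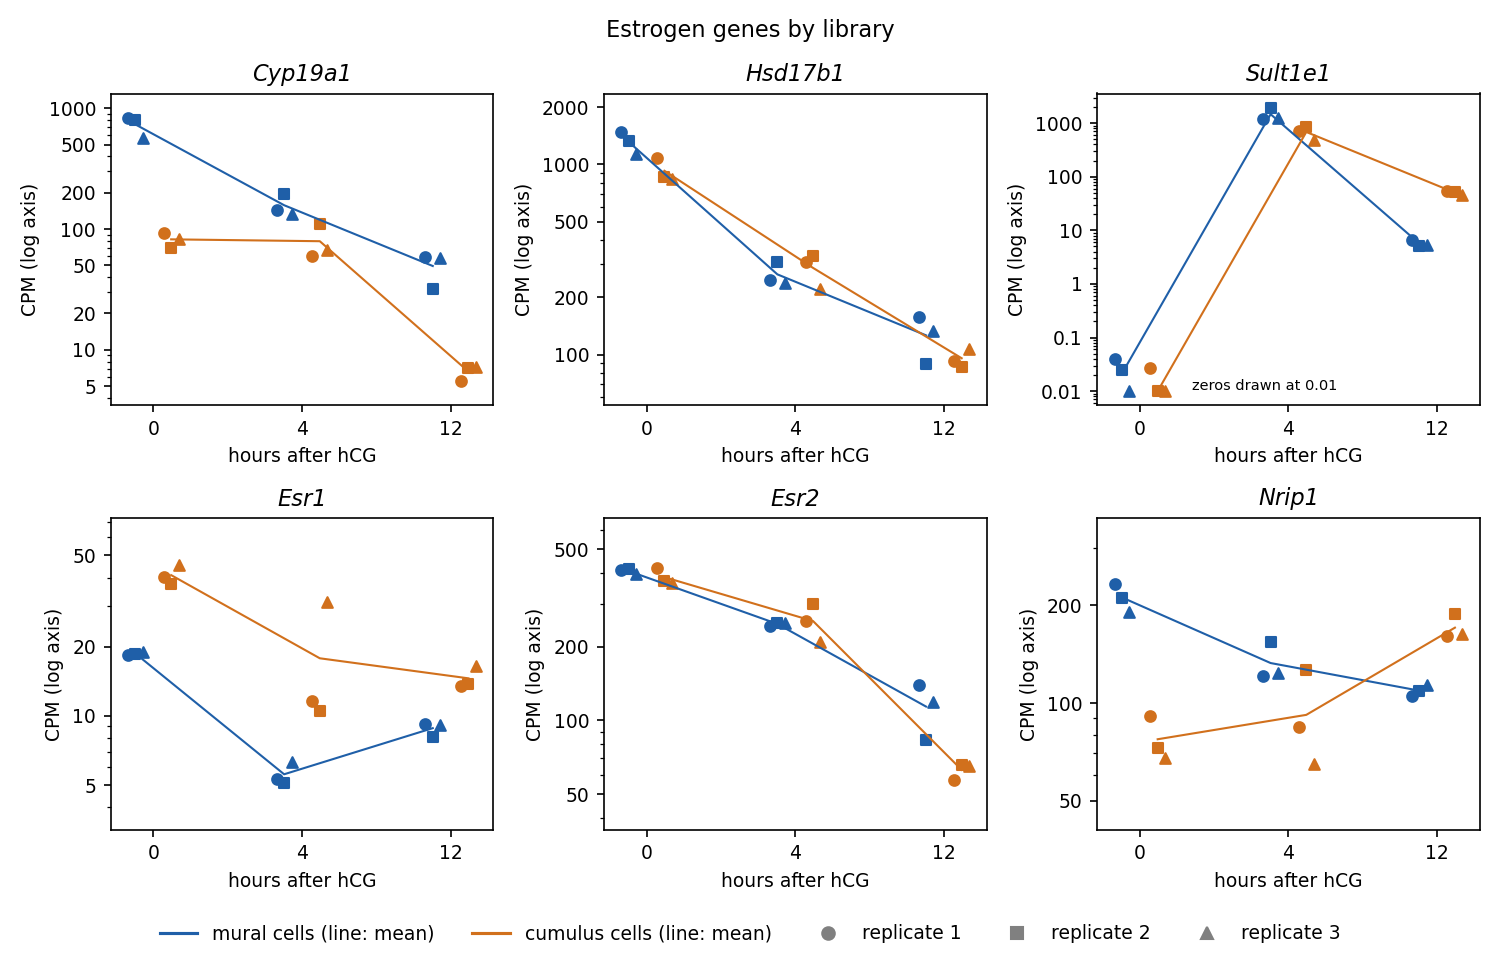
CPM of the 6 genes (log axes) in each of the 18 libraries against hours after hCG, with points for libraries, lines through group means of mural and cumulus cells, and times evenly spaced. Zeros of Sult1e1 are drawn at 0.01. Sult1e1 is near 0 at 0 h and peaks at 4 h in both cell types, and Nrip1 moves in opposite directions between 0 and 12 h.

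Cyp19a1, the aromatase gene, was high in mural cells before hCG and fell there by 4 h, while in cumulus cells it was low from the start and fell later. Mural libraries held 828, 807 and 568 CPM at 0 h, 145, 195 and 132 CPM at 4 h and 58.6, 31.6 and 58.2 CPM at 12 h. Cumulus libraries held 93.6, 70.0 and 83.0 CPM, then 60.3, 111 and 66.6 CPM, then 5.56, 7.06 and 7.21 CPM. The 3 mural times did not overlap, whereas the cumulus libraries of 0 and 4 h did and those of 12 h lay far below both. Group means ran in the order mural 0 h (734 ± 145 CPM, SD, n = 3), mural 4 h (158 ± 33.3), cumulus 0 h (82.2 ± 11.8), cumulus 4 h (79.3 ± 27.6), mural 12 h (49.5 ± 15.5) and cumulus 12 h (6.61 ± 0.916). In that order, neighbours overlapped only between cumulus 0 h and cumulus 4 h.

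The mural change of Cyp19a1 was -2.22 ± 0.26 at 4 h (adjusted p = 1.69e-06, 4.66-fold lower) and -3.89 ± 0.28 at 12 h (adjusted p = 3.39e-09, 14.8-fold lower). The further mural step from 4 to 12 h was -1.67 ± 0.25 (adjusted p = 5.40e-05). The cumulus change was -0.05 ± 0.25 by 4 h (adjusted p = 0.878) and -3.58 ± 0.28 from 4 to 12 h (adjusted p = 1.20e-08, 12.0-fold lower), so that most of the cumulus fall came after 4 h. Tested directly, the cumulus change exceeded the mural change by 2.17 ± 0.35 from 0 to 4 h (adjusted p = 0.000482), a difference called in 14% of all genes tested. From 4 to 12 h it lay below the mural change (difference -1.91 ± 0.36, adjusted p = 0.000464, called in 41.4%). Over the whole 12 h the changes differed by 0.26 ± 0.36 (adjusted p = 0.602).

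Cumulus cells held less Cyp19a1 RNA than mural cells at each time: 8.93-fold less at 0 h (-3.16 ± 0.27, adjusted p = 6.43e-08), 1.99-fold less at 4 h (-0.99 ± 0.25, adjusted p = 0.00294) and 7.48-fold less at 12 h (-2.90 ± 0.27, adjusted p = 2.81e-07). The 4 h difference was not called with the oocyte marker sum as a covariate (-0.53, adjusted p = 0.357). The 3 cumulus-against-mural comparisons called 46.8, 54.5 and 38.5% of all genes tested, and 4 of the 6 genes followed here in each.

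Hsd17b1, whose product makes estradiol from estrone, fell in both cell types by 4 h and again by 12 h. In mural cells it was at 1477, 1334 and 1133 CPM at 0 h, 247, 307 and 238 CPM at 4 h and 157, 89.1 and 132 CPM at 12 h. Cumulus libraries gave 1083, 857 and 838 CPM, then 306, 331 and 220 CPM, then 92.9, 86.5 and 107 CPM. Within each cell type the 3 times did not overlap, and from 4 h on the cell types overlapped. By mean the order was mural 0 h (1315 ± 173), cumulus 0 h (926 ± 136), cumulus 4 h (286 ± 58.2), mural 4 h (264 ± 37.3), mural 12 h (126 ± 34.4) and cumulus 12 h (95.6 ± 10.7 CPM), and the neighbours that overlapped were the 2 groups of 4 h and the 2 groups of 12 h.

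The mural change of Hsd17b1 was -2.32 ± 0.20 at 4 h (adjusted p = 3.97e-08, 4.98-fold lower) and -3.38 ± 0.21 at 12 h (adjusted p = 4.56e-10, 10.4-fold lower). The cumulus changes were -1.70 ± 0.20 (adjusted p = 1.34e-06, 3.24-fold lower) and -3.28 ± 0.21 (adjusted p = 2.74e-10, 9.69-fold lower). Thus cumulus aromatase RNA at 4 h stood at its level of 0 h within the spread, while cumulus Hsd17b1 RNA had fallen. The changes of the cell types differed by 0.62 ± 0.27 from 0 to 4 h (adjusted p = 0.137), by 0.10 ± 0.27 from 0 to 12 h (adjusted p = 0.79) and by -0.51 ± 0.27 from 4 to 12 h (adjusted p = 0.143). Whether the first and the last were called depended on the fit. The first was 0.80 with library totals, 0.81 with the oocyte covariate, 0.91 by voom, 0.82 without cumulus 4 h replicate 3 and 0.90 without that library and cumulus 0 h replicate 1 (adjusted p = 0.0327, 0.0424, 0.0101, 0.0317 and 0.0297). The last was -0.75 without cumulus 4 h replicate 3 (adjusted p = 0.0243), -0.71 without mural 12 h replicate 2 (adjusted p = 0.0339), -0.78 with library totals (adjusted p = 0.0177) and -0.69 by voom (adjusted p = 0.0206). Cumulus cells were 1.42-fold lower at 0 h (-0.51 ± 0.19, adjusted p = 0.0391), a call lost without mural 0 h replicate 1 or 2, without cumulus 0 h replicate 2 or 3, and with the oocyte covariate (adjusted p from 0.00515 to 0.388 over the alternatives). Differences at 4 h (0.11 ± 0.19, adjusted p = 0.645) and 12 h (-0.40 ± 0.19, adjusted p = 0.112) did not pass. That at 12 h was called without mural 12 h replicate 2 (-0.60, adjusted p = 0.0189), with library totals (-0.53, adjusted p = 0.0237), by voom (-0.40, adjusted p = 0.0464) and with the oocyte covariate (-1.02, adjusted p = 0.0435).

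**Figure D2:**
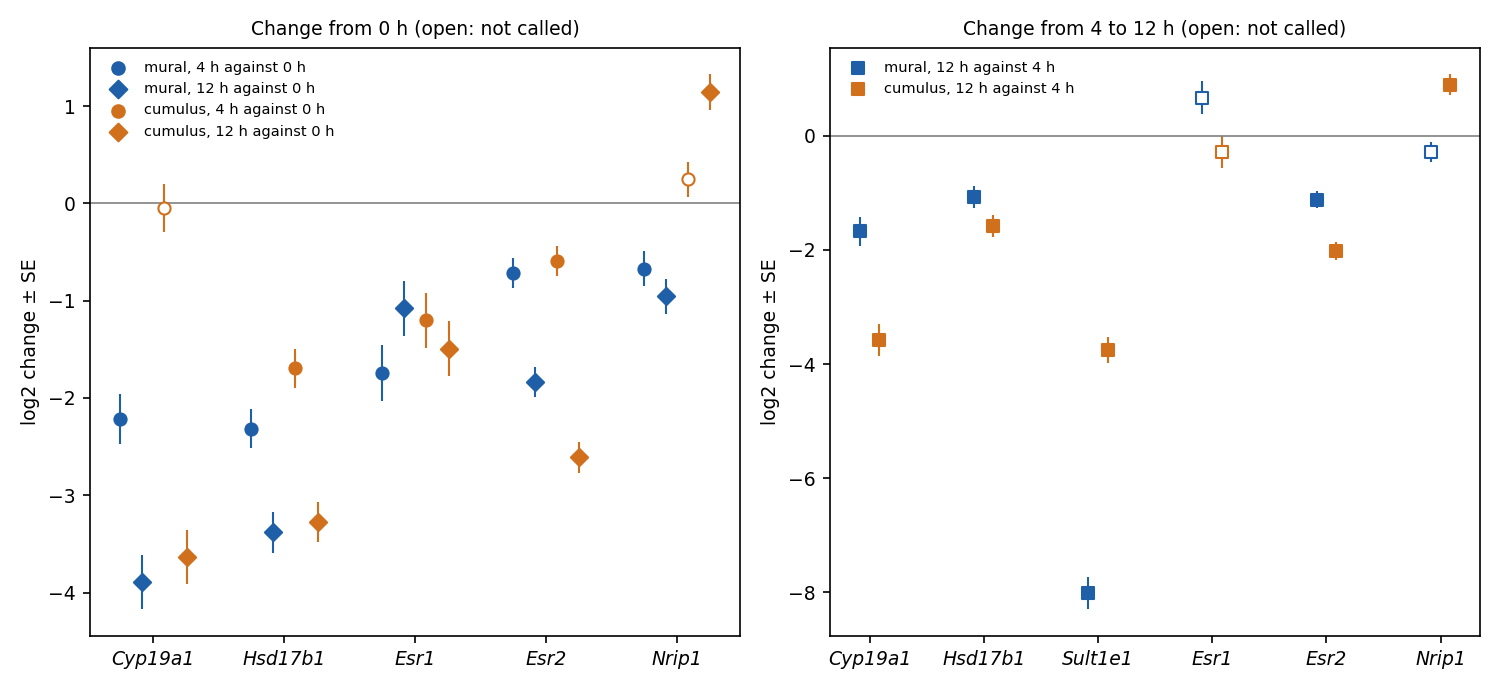
Log2 changes ± SE of the 6 genes within each cell type, from 0 h and from 4 to 12 h. Sult1e1 is left out of the changes from 0 h because its fitted fold against groups with 3 counts or fewer depends on the prior count.

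Per kilobase (kb) of merged exon, Hsd17b1 RNA stood above Cyp19a1 RNA in each library. In mural cells the level ratio of Hsd17b1 to Cyp19a1 was 6.11 ± 0.582 at 0 h, 5.71 ± 0.390 at 4 h and 8.75 ± 0.945 at 12 h (SD, n = 3). Cumulus cells had ratios of 38.2 ± 3.70, 12.8 ± 3.82 and 49.4 ± 7.61, above each mural library at every time. With the length of the longest coding transcript the ratios were smaller, 3.31, 3.10 and 4.74 in mural and 20.7, 6.93 and 26.8 in cumulus cells. A change of length scales each ratio by the same factor, so their order over groups could not change.

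A further 10 genes of steroid synthesis, among them enzymes, electron donors and helpers, went mostly the other way. In mural cells 7 of 10 rose and 3 fell at 4 h, where 22.8% of all genes rose and 22.3% fell (median log2 change 1.11, against -0.06 over all genes), and again 7 and 3 at 12 h (21.6% and 19% of all genes, median 1.44 against -0.05). In cumulus cells 6 rose and 2 fell at 4 h (25% and 22.8%, median 1.02 against 0.13) and 8 and 2 at 12 h (31.2% and 32.9%, median 1.69 against -0.09). With the oocyte marker sum as a covariate the last were 6 and 1, with a median of 0.89. Star, which carries cholesterol into mitochondria, went in mural cells from 21.6 to 3113 and 1369 CPM (7.17 ± 0.28 at 4 h, adjusted p = 1.83e-12). Fdx1, the electron donor of mitochondrial cytochromes P450, rose 5.27 ± 0.26 in cumulus cells at 4 h (33.5 to 1290 CPM, adjusted p = 2.94e-11). Against these, Cyp17a1, the theca enzyme that makes androgens, fell in mural cells from 114 to 27.2 and 4.73 CPM (-2.07 ± 0.35 and -4.59 ± 0.39, adjusted p = 0.000157 and 1.26e-07). In cumulus cells Cyp17a1 had 77 counts in all at 0 h and 0 at 4 h, at least 22.4-fold lower against a floor of 3 counts over the group, and the list median there was 1.02 with that bound too. Hsd3b1, which makes progesterone from pregnenolone, fell in mural cells from 4246 to 2486 and 1327 CPM (at 4 h -0.77 ± 0.18, adjusted p = 0.00193), but rose in cumulus cells from 294 to 684 and 877 CPM (at 4 h 1.22 ± 0.18, adjusted p = 2.58e-05). Cyb5a, a helper of CYP17A1, fell in cumulus cells from 494 to 307 and 77.2 CPM (at 12 h -2.68 ± 0.15, adjusted p = 3.33e-11).

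Among regulators of aromatase more genes fell than rose. Of 15 genes tested, 3 rose and 7 fell in mural cells at 4 h, where 22.8% of all genes rose and 22.3% fell (list median -0.55, all genes -0.06), and 2 rose and 8 fell at 12 h (21.6% and 19%, medians -0.94 and -0.05). In cumulus cells 5 rose and 7 fell at 4 h (25% and 22.8%, medians -0.57 and 0.13), and 4 and 9 at 12 h (31.2% and 32.9%, medians -0.76 and -0.09). The last were 2 and 10 with the oocyte covariate, with a list median of -2.11. With library totals the mural list median at 4 h was -0.87. Fshr, the receptor of follicle-stimulating hormone, which drives Cyp19a1 in growing follicles, fell from 261 to 57.5 and 29.7 CPM in mural cells and from 298 to 41.8 and 5.33 CPM in cumulus cells (at 12 h -3.13 ± 0.20 and -5.80 ± 0.23, adjusted p = 1.06e-09 and 1.05e-12). Foxl2, a transcription factor of granulosa identity, fell from 403 to 96.4 CPM in mural cells and from 474 to 67.8 CPM in cumulus cells by 4 h (-2.06 ± 0.17 and -2.81 ± 0.17, adjusted p = 1.92e-08 and 4.84e-10). Foxo1, a transcription factor active in granulosa cells, fell in mural cells from 1065 to 264 CPM by 12 h (-2.01 ± 0.14, adjusted p = 1.74e-09).

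The 2 nuclear receptors that read the AAGGTCA half-site parted in mural cells at 12 h. By mean both stood lower at 4 h than at 0 h in both cell types. Nr5a1 (SF-1) was at 373, 209 and 141 CPM in mural and 444, 133 and 277 CPM in cumulus cells over the 3 times. It fell by 12 h in both cell types, with changes of -1.41 ± 0.14 in mural (adjusted p = 1.95e-07) and -0.68 ± 0.14 in cumulus cells (adjusted p = 0.000308). Nr5a2 (LRH-1) was in mural cells at 1341, 779 and 1517 CPM over the 3 times, with a 12 h change of 0.18 ± 0.13 that did not pass (adjusted p = 0.3). In cumulus cells it went from 607 to 172 and 257 CPM (at 12 h -1.24 ± 0.13, adjusted p = 1.85e-07). A pair of factors of cAMP signalling rose: Crem from 12.0 to 154 CPM in mural and from 6.82 to 143 CPM in cumulus cells at 4 h (3.68 ± 0.28 and 4.39 ± 0.29, adjusted p = 8.46e-09 and 1.35e-09), and Cebpb from 86.4 to 328 and from 156 to 420 CPM (1.93 ± 0.13 and 1.43 ± 0.13, adjusted p = 1.42e-09 and 4.99e-08).

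Sult1e1, which sulfates estrogens, went from almost no counts to one of the largest rises of all genes. It was lower in cumulus than in mural cells at 4 h and higher at 12 h. At 0 h the mural libraries held 2, 1 and 0 counts and the cumulus libraries 1, 0 and 0. At 4 h the mural libraries held 1219, 1940 and 1236 CPM and the cumulus libraries 722, 845 and 481 CPM. At 12 h they held 6.63, 5.17 and 5.26 CPM in mural and 53.2, 52.5 and 45.4 CPM in cumulus cells. No 2 of the 4 groups after hCG overlapped, in the order mural 4 h (1465 ± 412), cumulus 4 h (683 ± 185), cumulus 12 h (50.4 ± 4.31) and mural 12 h (5.69 ± 0.817 CPM), and the 0 h groups were both at or under the floor of 3 counts.

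By size of fitted change Sult1e1 ranked 1 of all genes tested in mural and 2 in cumulus cells at 4 h (adjusted p = 6.46e-14 and 1.37e-13). These ranks rest on 3 and 1 counts at 0 h and on the prior count of the fit, so they are not exact. As ratios of summed counts per M, the 4 h level was 66652 times that of 0 h in mural cells (139842 against 3 counts, 95% exact interval 22807 to 323205). In cumulus cells it was 88654 times (77304 against 1 count, interval 15911 to 3501710), so neither ratio is known to better than the handful of counts at 0 h. The 12 h level was 258 times that of 0 h in mural (interval 87.9 to 1254, adjusted p = 4.03e-10) and 6530 times in cumulus cells (interval 1172 to 257977, adjusted p = 6.04e-13). These intervals cover counting error only.

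Between 4 and 12 h Sult1e1 fell by 8.01 on the log2 scale in mural cells (SE 0.28, adjusted p = 3.14e-12, 258-fold lower) and by 3.76 in cumulus cells (SE 0.23, adjusted p = 5.66e-10, 13.6-fold lower). The difference between these falls was 4.25 ± 0.31 (adjusted p = 4.78e-08). Against 0 h, where the cell types held 3 and 1 counts, the changes were not found to differ (adjusted p = 0.918 at 4 h and 0.0667 at 12 h). The call at 12 h depended on the model, since the difference passed with DESeq2 (adjusted p = 0.00759), with only the compared groups (0.00722), by voom (0.0458), with the replicate block (0.0365) and without mural 0 h replicate 3 (0.0431). Accordingly the cell types changed order: cumulus cells were 2.15-fold lower at 4 h (-1.10 ± 0.21, adjusted p = 0.000273) and 8.86-fold higher at 12 h (3.15 ± 0.23, adjusted p = 1.39e-08). With the oocyte covariate the 4 h difference was not called (-0.55, adjusted p = 0.345) and the 12 h difference was 2.39 (adjusted p = 0.00284).

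The other genes of estrogen inactivation and sulfation moved in both directions. Of 18 listed, 17 were in the table and 15 were tested, Sts was not found under its name, and Hsd17b14 and Cyp1a1 did not pass the filter on low counts. In mural cells 2 rose and 7 fell at 4 h (22.8% and 22.3% of all genes, list median -0.55) and 5 and 6 at 12 h (21.6% and 19%, median 0.09). In cumulus cells 3 rose and 6 fell at 4 h (25% and 22.8%, median -0.25) and 6 and 5 at 12 h (31.2% and 32.9%, median 0.12). When counts were scaled by library totals the medians were -0.87 and -0.09 in mural and -0.39 and -0.12 in cumulus cells at 4 and 12 h. In cumulus cells at 12 h, 1 rose and 5 fell with the oocyte covariate (median -0.19). Papss2, which makes the sulfate donor that SULT1E1 uses, was at 143, 97.9 and 88.1 CPM in mural cells, with a fall at 12 h (-0.70 ± 0.22, adjusted p = 0.0179) and none called at 4 h (-0.55 ± 0.22, adjusted p = 0.0548). Cumulus cells held 74.9, 53.8 and 58.4 CPM with no change called against 0 h.

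Cyp1b1, which hydroxylates estradiol, fell at 4 h from 201 to 106 CPM in mural (-0.93 ± 0.23, adjusted p = 0.00291) and from 157 to 20.1 CPM in cumulus cells (-2.96 ± 0.25, adjusted p = 2.42e-08). By 12 h it stood above its level of 0 h, at 425 CPM in mural (1.08 ± 0.23, adjusted p = 0.000939) and 290 CPM in cumulus cells (0.89 ± 0.23, adjusted p = 0.00257). Hsd17b10, a mitochondrial dehydrogenase that can oxidise estradiol, fell from 175 to 75.5 and 66.9 CPM in cumulus cells (at 12 h -1.38 ± 0.15, adjusted p = 2.58e-07). Hsd17b11 rose by 12 h from 54.5 to 274 CPM in mural (2.33 ± 0.18, adjusted p = 8.37e-09) and from 22.7 to 62.3 CPM in cumulus cells (1.46 ± 0.18, adjusted p = 1.27e-06). Hsd17b4, a peroxisomal enzyme, rose in cumulus cells from 98.8 to 131 and 213 CPM (at 12 h 1.11 ± 0.10, adjusted p = 2.02e-08), as did Abcc1, an efflux pump of conjugates, at 4 h in mural (0.89 ± 0.11, adjusted p = 4.99e-06) and cumulus cells (1.11 ± 0.12, adjusted p = 3.36e-07). Sult1a1, another sulfotransferase, rose in mural cells by 12 h from 2.21 to 13.2 CPM (2.57 ± 0.33, adjusted p = 4.34e-06) and fell in cumulus cells from 1.002 to 0.272 CPM (-1.87 ± 0.38, adjusted p = 0.000302). Slc35b3, of the same list, rose in mural cells at 4 h from 24.5 to 29.9 CPM (0.29 ± 0.10, adjusted p = 0.031). H2-Ke6 (Hsd17b8) fell by 12 h from 11.5 to 6.45 CPM in mural cells (-0.83 ± 0.16, adjusted p = 0.000278). In cumulus cells H2-Ke6 fell from 15.1 to 8.20 CPM (-0.88 ± 0.16, adjusted p = 8.71e-05).

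Esr2, the receptor gene known for granulosa cells, fell in both cell types and further in cumulus cells. Mural libraries gave 410, 415 and 397 CPM at 0 h, 243, 250 and 250 CPM at 4 h and 140, 83.2 and 119 CPM at 12 h. Cumulus libraries gave 419, 371 and 363 CPM, then 255, 300 and 209 CPM, then 57.2, 65.9 and 65.4 CPM. The cell types overlapped at 0 and 4 h and not at 12 h, and within a cell type no times overlapped. The order of means was mural 0 h (407 ± 9.47), cumulus 0 h (384 ± 30.2), cumulus 4 h (254 ± 45.3), mural 4 h (248 ± 4.15), mural 12 h (114 ± 28.7) and cumulus 12 h (62.8 ± 4.85 CPM).

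The mural change of Esr2 was -0.72 ± 0.15 at 4 h (adjusted p = 0.000807) and -1.84 ± 0.16 at 12 h (adjusted p = 2.65e-08, 3.57-fold lower). The cumulus change was -0.59 ± 0.15 at 4 h (adjusted p = 0.00344) and -2.61 ± 0.16 at 12 h (adjusted p = 1.63e-10, 6.11-fold lower). Up to 4 h the cell types' changes differed by 0.12 ± 0.21 (adjusted p = 0.74), and up to 12 h by -0.78 ± 0.21 (adjusted p = 0.00792, called in 40.1% of all genes). From 4 to 12 h the difference was -0.90 ± 0.21 (adjusted p = 0.00286), or -1.35 with the oocyte marker sum as a covariate, which was not called (adjusted p = 0.0683). Levels of cumulus against mural cells were -0.08 ± 0.15 at 0 h (adjusted p = 0.674), 0.04 ± 0.15 at 4 h (adjusted p = 0.849) and -0.86 ± 0.15 at 12 h (adjusted p = 0.000244, 1.81-fold lower).

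Esr1, the gene of estrogen receptor alpha, had the lowest level per kilobase of merged exon of the 5 genes measurable at 0 h (1.37 CPM per kilobase in mural and 3.004 in cumulus cells). It was higher in cumulus than in mural cells at 0 and 4 h, and fell after hCG in both, with the limits given below. Mural libraries gave 18.3, 18.6 and 19.1 CPM at 0 h, 5.29, 5.11 and 6.31 CPM at 4 h and 9.24, 8.13 and 9.17 CPM at 12 h. Cumulus libraries gave 40.3, 37.4 and 45.5 CPM at 0 h, 11.6, 10.5 and 31.4 CPM at 4 h and 13.6, 13.7 and 16.5 CPM at 12 h. The 31.4 CPM belonged to cumulus 4 h replicate 3, the library with the highest oocyte marker sum, and the other cumulus libraries of 4 h lay below those of 12 h. By mean the order was cumulus 0 h (41.0 ± 4.11), mural 0 h (18.7 ± 0.368), cumulus 4 h (17.8 ± 11.7), cumulus 12 h (14.6 ± 1.63), mural 12 h (8.85 ± 0.619) and mural 4 h (5.57 ± 0.650 CPM), and cumulus 4 h overlapped both of its neighbours.

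The mural change of Esr1 was -1.74 ± 0.29 at 4 h (adjusted p = 9.31e-05, 3.35-fold lower) and -1.08 ± 0.28 at 12 h (adjusted p = 0.00514). In cumulus cells it was -1.20 ± 0.28 at 4 h (adjusted p = 0.00182), or -1.89 ± 0.14 without cumulus 4 h replicate 3 (adjusted p = 1.80e-09), and -1.49 ± 0.28 at 12 h (adjusted p = 0.000189). The cumulus change at 4 h was not called with only the compared groups fitted (-1.26, adjusted p = 0.065), and that at 12 h was 0.18 with the oocyte covariate (adjusted p = 0.86). From 4 to 12 h neither cell type passed, at 0.67 ± 0.29 in mural cells (adjusted p = 0.087) and -0.29 ± 0.28 in cumulus cells (adjusted p = 0.388). Without cumulus 4 h replicate 3 the cumulus step was 0.36 ± 0.14 (adjusted p = 0.0288) and without that library and cumulus 0 h replicate 1 the mural step was 0.67 ± 0.13 (adjusted p = 0.000219). That mural step was also called by voom (0.62, adjusted p = 0.00357), with only the compared groups (0.66, adjusted p = 0.00325), with the replicate block (0.68, adjusted p = 0.0403) and with the oocyte covariate (0.68, adjusted p = 0.0335). Changes of the cell types differed by 0.54 ± 0.40, -0.41 ± 0.40 and -0.96 ± 0.40 from 0 to 4, 0 to 12 and 4 to 12 h (adjusted p = 0.38, 0.431 and 0.067). Without cumulus 4 h replicate 3 the first was -0.11 (adjusted p = 0.759) and the last -0.34 (adjusted p = 0.152). The last was called with DESeq2 (-1.03, adjusted p = 0.0397), with library totals (-1.22, adjusted p = 0.0331) and with the replicate block (-0.88, adjusted p = 0.0473). It was also called without cumulus 4 h replicate 1 or 2 (-1.18 and -1.21, adjusted p = 0.0204 and 0.00987). It was 1.10 with the oocyte covariate (adjusted p = 0.409). The difference from 0 to 12 h was called by voom (-0.40, adjusted p = 0.0409) and with only the compared groups (-0.44, adjusted p = 0.026). It was 1.16 with the oocyte covariate (adjusted p = 0.214).

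Cumulus cells held more Esr1 RNA than mural cells at 0 h (1.13 ± 0.28, adjusted p = 0.00331, 2.20-fold) and at 4 h (1.68 ± 0.29, adjusted p = 0.000147, 3.20-fold). The 4 h value was 1.05 ± 0.14 without cumulus 4 h replicate 3 (adjusted p = 4.56e-06). At 12 h the difference was 0.72 ± 0.28 (adjusted p = 0.0535) with no overlap, or 0.72 ± 0.12 without cumulus 0 h replicate 1 and cumulus 4 h replicate 3 (adjusted p = 5.60e-05). It was also called with the replicate block, by voom, with only the compared groups and with the oocyte covariate (0.71, 0.72, 0.69 and 1.83). The oocyte markers were at 6.10 to 10.96 CPM in cumulus cells there. With the oocyte covariate neither the 0 h difference (0.67, adjusted p = 0.0636) nor the 4 h difference (0.73, adjusted p = 0.203) was called. Mural cells, in which the theca markers summed higher at each time, held the lower mean level of Esr1 at each time. The part of theca cells in the Esr1 levels was not tested.

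**Figure D3:**
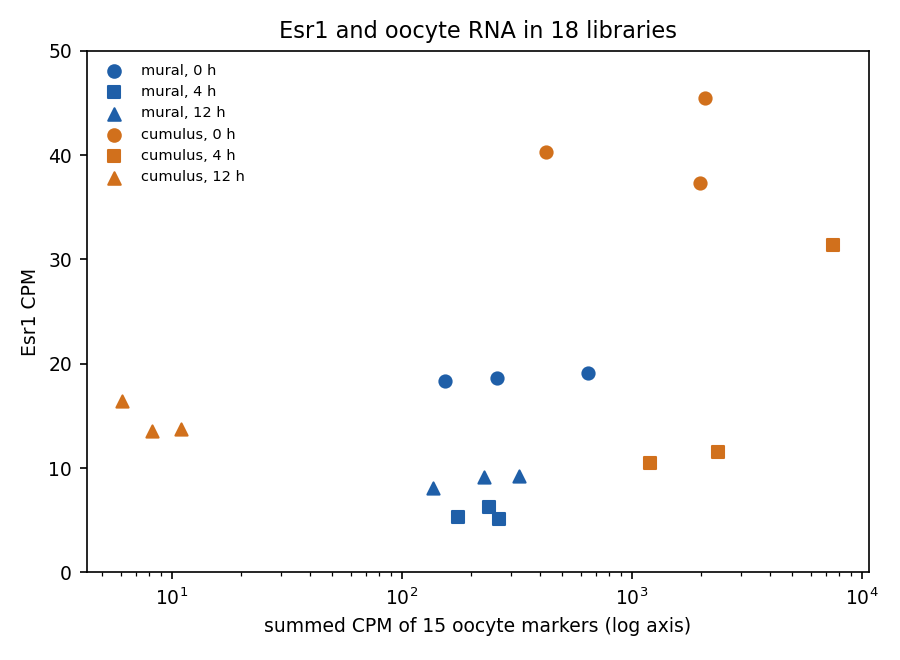
CPM of Esr1 (vertical axis) against the summed CPM of 15 oocyte markers (horizontal log axis) in the 18 libraries, by cell type and time. The library at 7541 CPM of oocyte markers is cumulus 4 h replicate 3, with 31.4 CPM of Esr1, while the other 4 h cumulus libraries hold 11.6 and 10.5 CPM.

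Per kb of merged exon, Esr2 RNA exceeded Esr1 RNA in each library. In mural cells the level ratio of Esr2 to Esr1 was 88.4 ± 3.55 at 0 h, 182 ± 19.5 at 4 h and 51.8 ± 9.99 at 12 h. In cumulus cells it was 38.3 ± 5.20, 77.2 ± 45.4 and 17.6 ± 1.72, with 27.0 in cumulus 4 h replicate 3 and up to 115 in another library of that group. The ratio was lower in cumulus than in mural libraries at each time and was highest at 4 h in mural cells. By the longest coding transcript it was 41.1, 84.5 and 24.1 in mural and 17.8, 35.9 and 8.17 in cumulus cells. Gper1, a membrane receptor that answers to estrogen, was at most 2.47 CPM by group mean, in mural cells at 0 h, and fell there to 0.274 CPM at 4 h (-3.16 ± 0.75, adjusted p = 0.00211).

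**Figure D4:**
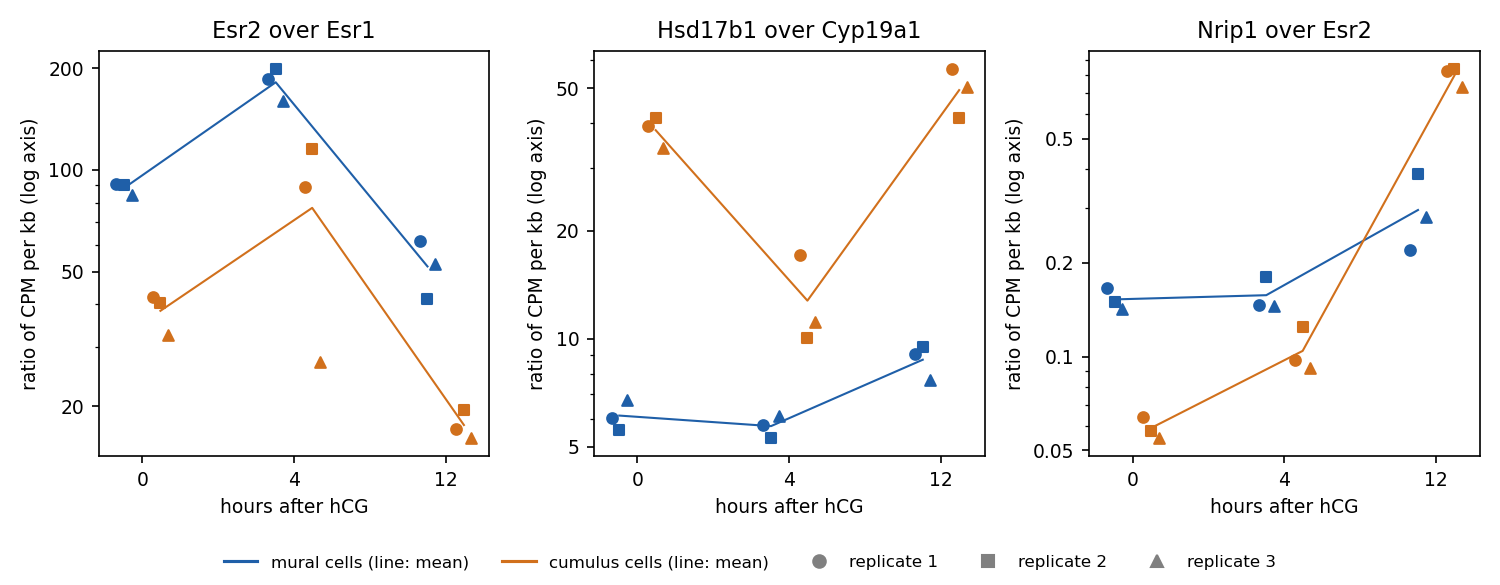
Ratios of levels per kb of merged exon (log axes) in each library against hours after hCG, for Esr2 over Esr1, Hsd17b1 over Cyp19a1 and Nrip1 over Esr2, with lines through the means. The cumulus ratio of Nrip1 to Esr2 goes from 0.0589 to 0.7996 by 12 h and the mural ratio from 0.153 to 0.296.

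Nrip1, the coregulator that binds estrogen and other nuclear receptors, fell in mural cells and rose in cumulus cells. Mural libraries gave 232, 211 and 191 CPM at 0 h, 121, 154 and 124 CPM at 4 h and 105, 109 and 114 CPM at 12 h. Cumulus libraries gave 91.3, 72.9 and 67.8 CPM, then 84.4, 126 and 65.1 CPM, then 161, 188 and 164 CPM. Each mural library of 0 h lay above each mural library of later times, and each cumulus library of 12 h above each earlier one, while cumulus libraries of 0 and 4 h overlapped. The order of means was mural 0 h (212 ± 20.6), cumulus 12 h (171 ± 14.8), mural 4 h (133 ± 18.3), mural 12 h (109 ± 4.26), cumulus 4 h (92.0 ± 31.4) and cumulus 0 h (77.4 ± 12.4 CPM), and cumulus 4 h overlapped both of its neighbours.

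The mural change of Nrip1 was -0.67 ± 0.18 at 4 h (adjusted p = 0.00528, 1.59-fold lower) and -0.95 ± 0.18 at 12 h (adjusted p = 0.000334, 1.94-fold lower), with -0.28 ± 0.18 between these times (adjusted p = 0.257, or 0.0203 with only the compared groups). The cumulus change was 0.25 ± 0.18 at 4 h (adjusted p = 0.26) and 1.14 ± 0.18 at 12 h (adjusted p = 3.00e-05, 2.21-fold higher), and 0.89 ± 0.18 from 4 to 12 h (adjusted p = 0.000384). Without cumulus 4 h replicate 3 the cumulus change at 4 h was 0.45 ± 0.15 (adjusted p = 0.0167), and without cumulus 4 h replicate 2 it was -0.05 (adjusted p = 0.792). It was called by voom (0.27, adjusted p = 0.0417) and with the oocyte covariate (0.45, adjusted p = 0.011). The changes differed between the cell types by 0.92 ± 0.25 from 0 to 4 h (adjusted p = 0.0221), 2.10 ± 0.26 from 0 to 12 h (adjusted p = 6.56e-06) and 1.18 ± 0.25 from 4 to 12 h (adjusted p = 0.00139). The first of these was not called without mural 4 h replicate 1 or 3, or with only the compared groups fitted (0.86, 0.89 and 0.93, adjusted p = 0.0606, 0.0598 and 0.0808). With the oocyte covariate the later differences were 0.84 (0 to 12 h, adjusted p = 0.109) and -0.35 (4 to 12 h, adjusted p = 0.659).

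Against mural cells, cumulus Nrip1 was 2.73-fold lower at 0 h (-1.45 ± 0.18, adjusted p = 5.51e-06) and 1.56-fold higher at 12 h (0.64 ± 0.18, adjusted p = 0.00879). At 4 h the difference was -0.53 ± 0.18 (adjusted p = 0.0192), with libraries of the 2 cell types overlapping, and it was -0.27 ± 0.15 without cumulus 4 h replicate 3 (adjusted p = 0.142). That call was also lost without mural 4 h replicate 2 (-0.44, adjusted p = 0.0804) and without cumulus 4 h replicate 1 (-0.48, adjusted p = 0.0671). With the oocyte covariate, whose sum was far lower in cumulus cells at 12 h than in any other group, neither the cumulus change at 12 h (-0.19, adjusted p = 0.731) nor the step from 4 to 12 h (-0.64, adjusted p = 0.301) was called, and both turned negative. The difference from mural cells at 12 h was then not called either (-0.24, adjusted p = 0.551). Per kb, the level ratio of Nrip1 to Esr2 in mural cells was 0.153 ± 0.0127, 0.157 ± 0.0201 and 0.296 ± 0.0831 over the 3 times, and in cumulus cells 0.0589 ± 0.00469, 0.104 ± 0.0174 and 0.7996 ± 0.0558. By the longest coding transcript it was 0.222, 0.229 and 0.430 in mural and 0.0857, 0.152 and 1.16 in cumulus cells, so that at 12 h in cumulus cells Nrip1 lay below Esr2 by one length and above it by the other. Thus the coregulator gained on the receptor gene in both cell types by 12 h, on this scale of levels.

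Other receptors and coregulators had small median changes. Of 20 genes, 10 rose and 2 fell in mural cells at 4 h (22.8% and 22.3% of all genes, list median 0.25) and 3 and 3 at 12 h (21.6% and 19%, median -0.06). In cumulus cells 8 rose and 0 fell at 4 h (25% and 22.8%, median 0.26) and 10 and 5 at 12 h (31.2% and 32.9%, median 0.33). These counts depended on the scaling, since with library totals they were 1 and 5 (median -0.08), 2 and 6 (-0.24), 6 and 4 (0.12), and 5 and 6 (0.09). The cumulus counts at 12 h were 4 and 3 with the oocyte covariate (median -0.12). Esrra, an orphan receptor tied to energy metabolism, rose in mural cells from 16.5 to 24.8 and 31.8 CPM and in cumulus cells from 14.1 to 24.2 and 40.9 CPM (at 12 h 0.95 ± 0.12 and 1.53 ± 0.12, adjusted p = 5.18e-06 and 6.60e-09). Ep300, an acetyltransferase coactivator, rose in cumulus cells by 12 h from 67.8 to 166 CPM (1.29 ± 0.08, adjusted p = 2.23e-10), and Ncoa3, a steroid receptor coactivator, rose there at 4 h (0.94 ± 0.21, adjusted p = 0.00107). Ncoa1, a relative of it, fell in mural cells at 4 h from 67.6 to 52.0 CPM (-0.38 ± 0.11, adjusted p = 0.0106). Prmt1, a methyltransferase coactivator, rose in mural cells at 4 h (0.52 ± 0.13, adjusted p = 0.0022), and Phb2, a corepressor of estrogen receptors, rose there by 12 h (0.70 ± 0.08, adjusted p = 1.03e-06). Both fell in cumulus cells by 12 h, Prmt1 from 208 to 165 CPM (-0.33 ± 0.12, adjusted p = 0.027) and Phb2 from 279 to 231 CPM (-0.27 ± 0.08, adjusted p = 0.00591).

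A pair of orphan receptors fell steeply in cumulus cells by 12 h: Esrrg from 15.3 to 0.392 CPM (-5.29 ± 0.53, adjusted p = 1.25e-07) and Esrrb from 5.32 to 0.140 CPM (-5.21 ± 0.79, adjusted p = 1.96e-05). The summed oocyte markers in those libraries went from 426 to 2083 CPM at 0 h to 6.10 to 10.96 CPM at 12 h, and their part in these falls was not tested. In mural cells Esrrg fell by 12 h from 6.96 to 1.84 CPM (-1.92 ± 0.44, adjusted p = 0.00186), as did Nr2f2, a receptor typical of theca and stroma, from 50.7 to 35.7 CPM (-0.51 ± 0.14, adjusted p = 0.0074). Nr2f2 rose in cumulus cells over the same time, from 35.7 to 51.9 CPM (0.54 ± 0.14, adjusted p = 0.00284).

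Among genes known to respond to estrogen more fell than rose, but not as a block. Of 15 genes, 1 rose and 5 fell in mural cells at 4 h (22.8% and 22.3% of all genes, list median -0.47) and 3 and 9 at 12 h (21.6% and 19%, median -1.62). In cumulus cells 3 rose and 6 fell at 4 h (25% and 22.8%, median -0.28) and 4 and 9 at 12 h (31.2% and 32.9%, median -0.79). The last were 2 and 8 with the oocyte covariate (median -1.87). Without cumulus 0 h replicate 1 and cumulus 4 h replicate 3 the cumulus counts at 4 h were 5 and 5 (median -0.12). With library totals the mural counts at 4 h were 1 and 10 (median -0.79), and the cumulus median at 4 h was -0.46. Greb1, an estrogen receptor cofactor and target, fell in mural cells from 2693 to 1596 and 606 CPM and in cumulus cells from 1383 to 696 and 501 CPM (at 12 h -2.15 ± 0.17 and -1.47 ± 0.16, adjusted p = 9.13e-09 and 4.56e-07). Nppc, which encodes the peptide that holds the oocyte in meiotic arrest, fell in mural cells from 125 to 11.3 and 5.42 CPM (at 12 h -4.53 ± 0.31, adjusted p = 2.23e-09), and its receptor gene Npr2 fell in cumulus cells at 4 h from 960 to 281 CPM (-1.77 ± 0.17, adjusted p = 1.10e-07). Inha, an inhibin subunit, fell in mural cells by 12 h from 10077 to 1769 CPM (-2.51 ± 0.20, adjusted p = 1.36e-08), and Ccnd2, a cyclin of granulosa proliferation, fell in cumulus cells from 572 to 55.8 CPM (-3.36 ± 0.19, adjusted p = 5.66e-11).

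Others of the estrogen-responsive genes rose. Pgr, the progesterone receptor gene, which is also induced by luteinizing hormone, went in mural cells from 2.08 to 1974 and back to 4.47 CPM and in cumulus cells from 0.144 to 70.3 and 0.837 CPM (at 4 h 9.88 ± 0.42 and 8.95 ± 0.48, adjusted p = 5.53e-12 and 1.07e-10). Like Sult1e1, it was highest at 4 h in both cell types. Igfbp4, a binding protein of insulin-like growth factors, rose by 12 h from 19.9 to 990 CPM in cumulus cells (5.64 ± 0.31, adjusted p = 4.17e-11) and from 25.1 to 57.9 CPM in mural cells (1.20 ± 0.26, adjusted p = 0.000989). Ctsd, a lysosomal protease, rose by 12 h in both (0.82 ± 0.10 and 1.90 ± 0.11, adjusted p = 4.20e-06 and 5.38e-11), and Xbp1, a factor of the unfolded protein response, rose in cumulus cells at 4 h from 96.8 to 198 CPM (1.03 ± 0.17, adjusted p = 8.54e-05).

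**Figure D5:**
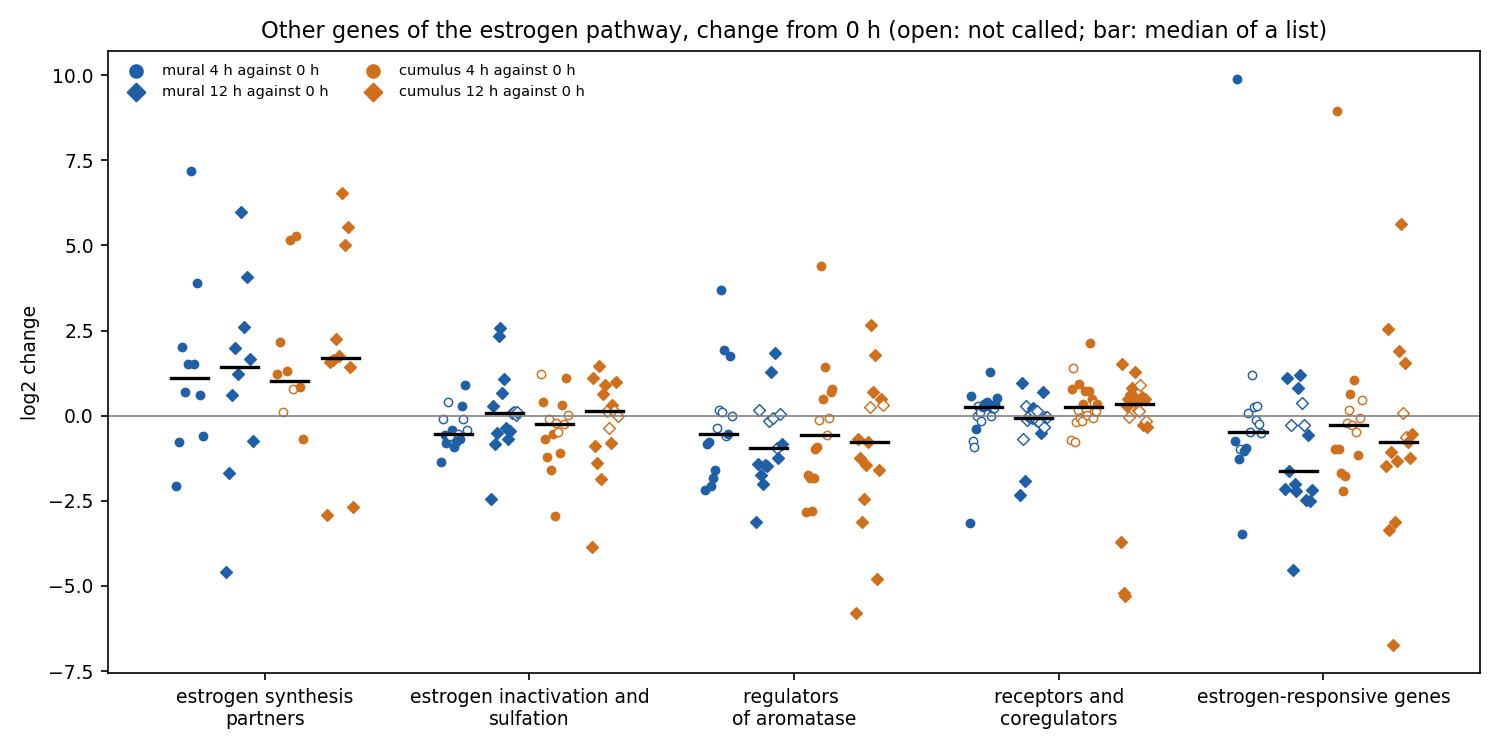
Log2 changes against 0 h of the tested genes of 5 lists (points) with the list median (bar), in mural and cumulus cells at 4 and 12 h, leaving out Cyp17a1 in cumulus cells at 4 h, which had no counts there. Steroid synthesis partners lie mostly above 0 and regulators of aromatase mostly below.

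The genes whose log2 CPM followed each member most closely over the 18 libraries, among 9595 candidates, are given as a description, since these libraries share their groups. For Sult1e1 they were Btc, an EGF-like growth factor (Pearson r = 0.995), Bin1 (0.986) and Itga2 (0.986). Btc went in mural cells from 2.46 to 1685 and 68.6 CPM and in cumulus cells from 2.94 to 832 and 256 CPM, so it shared the peak of Sult1e1 at 4 h and its order of cell types at 12 h. For Cyp19a1 they were Obsl1 (0.967), Slc26a7 (0.963) and Trpv4 (0.953), and for Hsd17b1 Colgalt2 (0.983), Rbl1 (0.981) and Khdrbs3 (0.971). Slc26a7, a chloride and bicarbonate transporter, went from 1040 to 574 and 67.1 CPM in mural and from 143 to 123 and 15.1 CPM in cumulus cells, a course that also had its main cumulus step after 4 h.

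For Esr2 the closest were Syt7 (0.988), Slc38a5 (0.987) and Ccne2 (0.981), for Esr1 Dym (0.982), Immp1l (0.974) and Elp3 (0.974), and for Nrip1 Ext1 (0.961), Mier1 (0.943) and Neo1 (0.941). Ext1, an enzyme of heparan sulfate synthesis, went from 769 to 534 CPM in mural cells and from 413 to 680 CPM in cumulus cells over the 12 h, down in one and up in the other as was Nrip1. Among the members, Esr2 and Hsd17b1 were most alike (r = 0.92), followed by Cyp19a1 with Esr2 (0.87) and with Hsd17b1 (0.81), whereas Esr1 and Sult1e1 ran opposite (-0.69).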

How the data were processed

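Counts of uniquely mapped reads per gene were deposited as whole numbers, not normalized, in 1 table (1 column per library). Per the series' design text, the authors made RNA libraries enriched for polyadenylated RNA with a stranded kit and aligned and counted reads in CLC Genomics Workbench with default parameters. The submitters' processing notes name GRCm38. Neither the version of that software nor the annotation nor the use of strand in counting is given in the sources used here. Of the names, 40826 occur in GENCODE M21, used for positions and lengths.

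In R 4.3.3, edgeR 4.0.16 kept 19941 genes by its expression filter (minimum count 10, 99.96% of counts), scaled them by TMM (trimmed mean of M values, factors 0.849 to 1.177) and fitted a robust quasi-likelihood model with 6 group means to 18 libraries. The 12 comparisons set times against each other in either cell type, cumulus against mural cells at 0, 4 and 12 h, and the cell types' changes against each other, of which that from 4 to 12 h was added after the data were seen. Alternatives used DESeq2 1.42.0, limma 3.58.1 (voom with sample weights), other scaling, no filter, a replicate block, the compared groups alone, the oocyte marker sum as a covariate, and libraries left out. Libraries of one group differed by more than sampling noise (chi-square per degree of freedom at least 7.81).

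The members, lists and rules were chosen with earlier results of these data known. Beside the members, each list gives its called genes with the 2 largest rises and the 2 largest falls against 0 h and with at least 5 CPM in the higher group, plus 10 genes named in any case (Cyp17a1, Fshr, Nr5a1, Nr5a2, Foxl2, Sts, Gper1, Papss2, Pgr and Greb1). Each member gives the 3 genes with the highest Pearson correlation of log2 CPM (prior count 2) among tested genes with at least 20 CPM in some group, leaving out clone and predicted names.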

Additional observations from a re-analysis of the deposited data

Results flagged for a closer look

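The cell types' changes after hCG differed, by an interaction term of the 18-library model, in 8 cases among the 6 genes, given as cumulus minus mural log2 change: 2 from 0 to 4 h, 2 from 0 to 12 h and 4 from 4 to 12 h. Of all genes tested 14, 40.1 and 41.4% were called in these comparisons. For Cyp19a1 the difference was 2.17 from 0 to 4 h and -1.91 from 4 to 12 h. For Nrip1 it was 0.92 from 0 to 4 h, 2.10 from 0 to 12 h and 1.18 from 4 to 12 h. For Esr2 it was -0.78 from 0 to 12 h and -0.90 from 4 to 12 h, and for Sult1e1 it was 4.25 from 4 to 12 h. With the oocyte marker sum as a covariate, the differences of Nrip1 from 0 to 12 h and from 4 to 12 h and that of Esr2 from 4 to 12 h were not called, and that of Nrip1 from 0 to 4 h was not called without mural 4 h replicate 1 or 3. Any pair of these comparisons shares the libraries of a time, that of 0, 4 or 12 h, in both cell types.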

How the results depend on the processing

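Of 72 results (6 genes in 12 comparisons), 37 kept their direction and their side of the threshold in every alternative run. Without a change of sign, 10 lost a call somewhere and 10 gained one. Somewhere 19 changed sign, most of them small and uncalled. These 19 include called results of Esr1 (cumulus 12 against 0 h) and Nrip1 (cumulus 12 against 0 and 4 h). With the oocyte covariate these lost their call as well. With counts scaled by library totals no member changed sign, but the share of called genes that were higher moved from 50.6 to 29.1% (mural 4 against 0 h), 53.2 to 39.9% (mural 12 against 0 h), 53.2 to 66.8% (mural 12 against 4 h), 52.3 to 41% (cumulus 4 against 0 h), 48.7 to 38.1% (cumulus 12 against 0 h), 46.7 to 35.6% (cumulus against mural at 12 h), and 48.3 to 69.3% and 48.8 to 32.5% (differences of change from 0 to 4 and 4 to 12 h). The median over all genes moved with it, for example from -0.06 to -0.38 in mural cells at 4 h and from -0.09 to -0.34 in cumulus cells at 12 h.

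With the oocyte marker sum as a covariate, which by construction sets cumulus cells at 12 h far from all other libraries, the genes called went from 12796 to 6737 (cumulus 12 against 0 h), 12065 to 4331 (12 against 4 h), 10876 to 5747 (cumulus against mural at 4 h), and 8003 to 4886 and 8256 to 2762 (differences of change from 0 to 12 and 4 to 12 h). Members called went from 4 to 2 and from 4 to 0 (cumulus against mural at 0 and 4 h), from 2 to 1 and from 4 to 2 (the same differences of change). Signs changed for Cyp19a1 (0.092 in cumulus cells at 4 h, -0.66 for the difference from 0 to 12 h), Hsd17b1 (-0.77 for that difference), Esr1 (0.18 and 1.78 in cumulus cells at 12 against 0 and 4 h, 1.16 and 1.10 for the differences to 12 h), Esr2 (0.0257, cumulus against mural at 0 h) and Nrip1 (-0.19 and -0.64 in cumulus cells at 12 against 0 and 4 h, 0.11 and -0.24 for cumulus against mural at 4 and 12 h, -0.35 for the difference from 4 to 12 h).

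With only the compared groups fitted, which uses fewer samples, 5509 genes were called in place of 9532 (cumulus 4 against 0 h) and 1564 in place of 2800 (difference from 0 to 4 h). Members called were 1 in place of 2 for that difference and 4 in place of 2 for that from 0 to 12 h. Sult1e1 could not be fitted there for cumulus against mural at 0 h, since it did not pass the filter. Voom called 5487 genes for the difference from 0 to 4 h and 4 members for that from 0 to 12 h, and Esr1 changed sign to 0.31 (cumulus 12 against 4 h) and -0.10 (difference from 0 to 4 h). Without cumulus 0 h replicate 1 and cumulus 4 h replicate 3 together, signs changed for Cyp19a1 (0.16, cumulus at 4 h) and Esr1 (0.40 in cumulus cells from 4 to 12 h and -0.16 for the difference from 0 to 4 h).

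Leaving out 1 library at a time, the genes called for the difference from 0 to 4 h ran from 2037 to 4272 (the highest without cumulus 4 h replicate 2) and the members called from 1 (without mural 4 h replicate 1 or 3) to 3. Ranges that cross 0 were -0.38 to 0.11 (Cyp19a1, cumulus at 4 h), -0.0516 to 0.45 (Nrip1, cumulus at 4 h), -0.55 to 0.36 (Esr1, cumulus 12 against 4 h), -0.0121 to 0.33 and -0.10 to 0.23 (Hsd17b1 and Esr2, cumulus against mural at 4 h), -0.59 to 1.86, -0.0125 to 0.29 and -0.11 to 0.80 (Sult1e1, Esr2 and Esr1, difference from 0 to 4 h) and -0.0866 to 0.30 (Hsd17b1, difference from 0 to 12 h). Apart from what the alternatives' construction states, the cause was not tested.

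The labels tie no replicate number to a shared animal or day, and the numbers were not used as pairs: of 45 same-number pairs between groups, 10 had deviations correlated above 0.1 (median r 0.0156). As a hint from the data, 11 of 18 libraries correlated best with their own number, so some pairing cannot be told apart from none. The fit with the replicate number as a block called, for example, 9191 genes in place of 8991 (mural 4 against 0 h), lost no member call, and added Esr1 (0.68, mural 12 against 4 h; 0.71, cumulus against mural at 12 h; -0.88, difference from 4 to 12 h) and Sult1e1 (4.36, difference from 0 to 12 h). Depth limits Sult1e1 at 0 h, where 4 counts in all were found.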
